A study of Mus musculus with 12 samples.

Results

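The genes of oxidative phosphorylation that are encoded in the nucleus were followed in the olfactory bulb (OB) of Tg2576 and wild-type (WT) mice. Members were all genes whose array symbol starts with Nduf, Sdh, Uqcr or Atp5, or with Cox followed by a digit from 4 to 8. The rule found 97 genes, each with 1 probeset, among 22206 gene probesets on the array, of which 19572 carry a symbol. The members fall into complex I (44 genes), complex II (8), complex III (8), complex IV (20) and complex V (17). By role they comprise 16 core subunits, 59 accessory subunits, 9 isoforms or paralogues, 12 assembly factors and the supercomplex factor Cox7a2l. Ndufa4 and Ndufa4l2 were counted with complex IV, where the Ndufa4 protein is found. Without the assembly factors, 85 members remain. The rule did not use any measured difference between groups.

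OB mRNA was measured on Affymetrix Clariom S mouse arrays in 12 female mice, 3 in each of 4 groups, with 1 mouse per array. Tg2576 mice carry a human amyloid precursor protein (APP) transgene with the familial Swedish mutation, driven by the prion promoter, and the WT mice are their littermates on the same C57BL/6/SJL background. Both genotypes were taken at 2 and at 6 months of age, an age that is given as 3 instead of 2 months in a table of the paper. Values are log2 intensities, so a difference of 1 is a 2-fold change. The comparisons address what the transgene does to OB gene expression at early ages. The array's probes are of mouse sequence, and the level of the human transgene itself was not measured here.

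The respiratory chain sits in the inner mitochondrial membrane. Complexes I and II feed electrons from NADH and succinate to ubiquinone, complex III passes them to cytochrome c, complex IV passes them to oxygen, and complex V makes ATP from the proton gradient that complexes I, III and IV build. Core subunits include those that carry the redox centres or the catalytic sites, while accessory subunits stabilize the complexes. For complex V, the subunits of the head and the central stalk were counted as core. Many core subunits, among them the catalytic subunits of complex IV, are encoded by mitochondrial DNA, and all members here are nuclear genes. Neurons rely on this pathway for most of their ATP, and promoters of its nuclear genes are known for sites of the activators NRF1 and GABP (an ETS factor) and of YY1.

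Promoter windows from RefSeq (build GRCm38.p6, 250 bases before to 50 bases after the start of transcription) were held for 81 of the 97 members, as 86 windows. The NRF1 motif GCGCNTGCG, searched on both strands with overlapping matches counted once, was in 33.7% of the member windows and in 6.31% of all 32851 windows. It was in 9 of 18 windows of complex V and in 1 of 14 of complex IV. The other motifs were searched in the same way. The ETS motif CCGGAAG was in 25.6% against 8.86%, and the YY1 motif AAGATGGC in 12.8% against 2.75%. By contrast, the motif TATAAA was in 11.6% of the member windows and 13.6% of all windows. The motif GGGCGG was in 46.5% against 35.7%, CCAAT in 41.9% against 37.4% and AAGGTCA in 9.3% against 4.72%. A match describes letters in the window and not a bound site. The windows below belong to 4 of the 5 members with the lowest p in a comparison of genotypes, described later in the text. Capitals mark matches to the NRF1 and ETS motifs on either strand. The windows are chr2:36049289-36049588 (minus strand) for Ndufa8, chr5:115348909-115349208 (minus strand) for Cox6a1, chr9:108936398-108936697 (plus strand) for Uqcrc1 and chr1:24005591-24005890 (minus strand) for Sdhaf4, all printed in the direction of the gene.
Ndufa8: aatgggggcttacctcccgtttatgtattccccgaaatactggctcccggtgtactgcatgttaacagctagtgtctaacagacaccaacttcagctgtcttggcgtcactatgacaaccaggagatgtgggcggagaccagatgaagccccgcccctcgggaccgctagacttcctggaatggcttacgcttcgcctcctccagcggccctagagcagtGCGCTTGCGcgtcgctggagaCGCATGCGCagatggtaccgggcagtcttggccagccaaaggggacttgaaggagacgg
Cox6a1: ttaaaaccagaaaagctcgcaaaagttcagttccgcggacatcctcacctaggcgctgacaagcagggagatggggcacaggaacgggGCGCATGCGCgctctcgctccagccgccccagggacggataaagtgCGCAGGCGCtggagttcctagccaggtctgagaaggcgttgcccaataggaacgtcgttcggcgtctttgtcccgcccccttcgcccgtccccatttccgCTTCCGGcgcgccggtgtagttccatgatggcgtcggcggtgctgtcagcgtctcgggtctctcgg
Uqcrc1: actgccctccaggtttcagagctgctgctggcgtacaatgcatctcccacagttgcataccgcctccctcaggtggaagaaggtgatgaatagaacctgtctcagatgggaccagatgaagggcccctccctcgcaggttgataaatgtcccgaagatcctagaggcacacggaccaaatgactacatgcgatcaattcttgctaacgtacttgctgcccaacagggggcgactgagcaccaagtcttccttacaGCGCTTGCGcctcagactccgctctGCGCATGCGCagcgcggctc
Sdhaf4: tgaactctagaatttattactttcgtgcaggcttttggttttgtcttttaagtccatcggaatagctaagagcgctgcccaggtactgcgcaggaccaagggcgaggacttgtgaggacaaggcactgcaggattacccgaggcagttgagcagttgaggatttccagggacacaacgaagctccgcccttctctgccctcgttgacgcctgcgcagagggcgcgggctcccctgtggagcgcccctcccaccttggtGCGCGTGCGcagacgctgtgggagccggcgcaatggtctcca
All 4 windows hold an NRF1 motif, Sdhaf4 once and the others 2 times, and the Cox6a1 window, the single NRF1 holder of complex IV, also holds an ETS motif. Members that were higher in Tg2576 mice at 2 months held the NRF1 motif in 34.8% of their 69 windows, and the other members in 29.4% of their 17. For the ETS motif these shares were 27.5% and 17.6%, and for GGGCGG, the other way, 42% and 64.7%.

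Before the groups were compared, the arrays were checked against each other. The median log2 intensity of an array was between 8.24 and 8.27, with Pearson correlations of 0.978 to 0.995 between arrays. All 12 arrays were bright for the 16 measured markers of OB neurons, with means from 10.34 to 10.62. The mean over the 18 hybridization control probesets was 12.5 and 12.1 in WT 6-month replicates 2 and 3, and 11.3 to 11.7 in the other 10 arrays. A pair of 2-month arrays stood at the ends of the members' range. Tg2576 2-month replicate 3 was the highest of the 12 arrays for 44 of the 97 members (12.2% of all probesets were highest there). WT 2-month replicate 1 was the lowest for 43 members (10.8% of all probesets). The genotype difference at 2 months and the differences between ages are given with and without them.

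At both ages, most respiratory chain genes were slightly higher in Tg2576 mice than in WT mice. At 2 months, 77 of the 97 members (79.4%) had a log2 fold change above 0, with a median of 0.11, where 51.8% of all gene probesets were above 0, with a median of 0.01. At 6 months, 79 members (81.4%) were above 0, with a median of 0.10, beside 51.8% and a median of 0.01 over all probesets. These shifts are small beside the error of a single gene, since the median standard error of a member's log2 fold change was 0.12. Only 1 member was called at each age, where a call needs an unadjusted limma p under 0.01 and a fold of Tg2576 over WT of more than 1.3 or less than 0.7. At 2 months Cox6a1 was called higher (0.401% of all probesets were called higher and 0.171% lower), and at 6 months Sdhaf4 (0.644% higher and 0.401% lower). At p under 0.01 alone, 2 members were higher at 2 months (0.639% of all probesets) and 2 lower (0.581%), and 1 was higher at 6 months (0.829%) and 0 lower (1.2%). At p under 0.05, 16 were higher (3.31%) and 2 lower (3.01%) at 2 months, and 7 higher (4.16%) and 0 lower (4.44%) at 6 months. No member passed the Benjamini-Hochberg limit of 0.05 in any comparison, which 1 probeset of all (0.0045%) did, between ages in WT mice, and the lowest adjusted p among members was 0.762 at 2 months and 0.475 at 6 months. The mRNA was from whole OB, so fewer cells of a type and less mRNA per cell cannot be told apart.

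**Figure D1:**
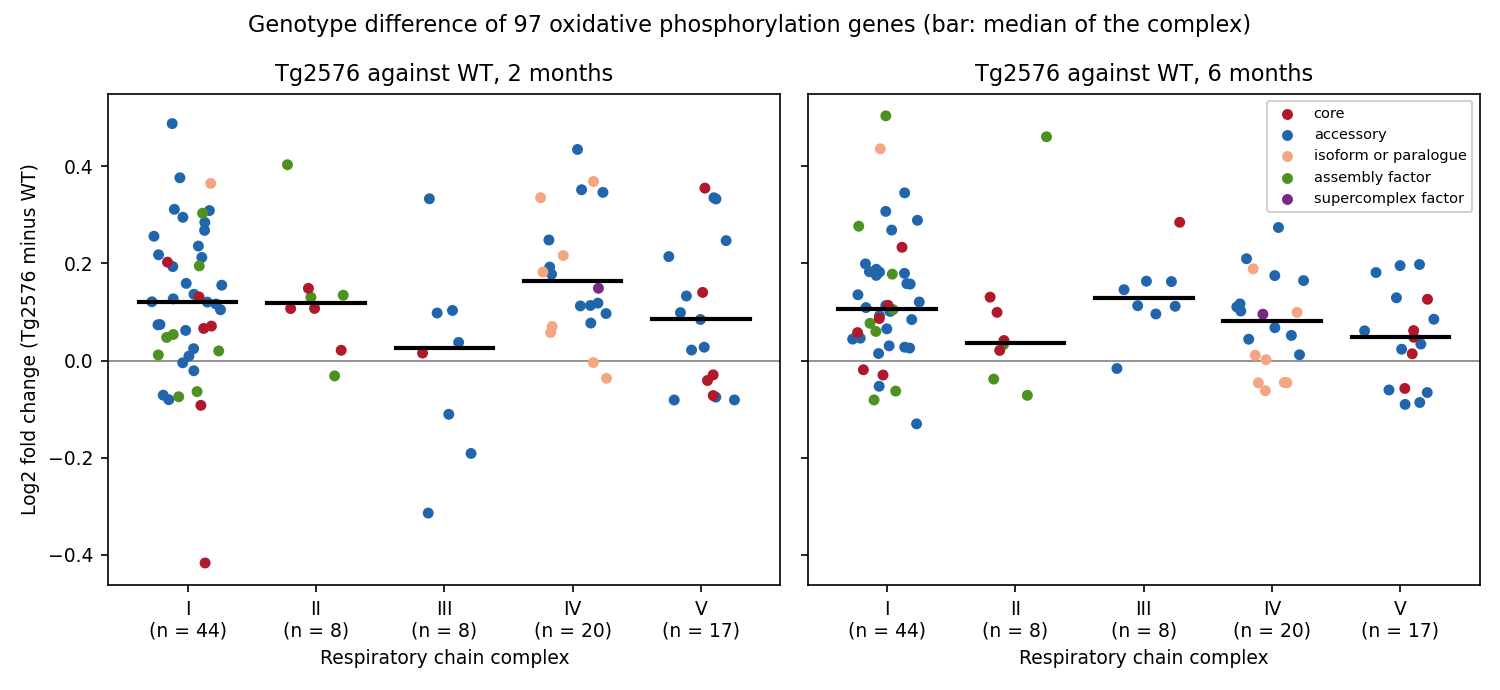
Log2 fold change of Tg2576 over WT mice (vertical axis) for each of the 97 members, grouped by complex, at 2 months (left) and 6 months (right). Each point is a gene coloured by its role, and the black bar is the median of the complex. Medians lie above 0 in every complex at both ages, from 0.03 to 0.16 at 2 months and from 0.04 to 0.13 at 6 months, and Ndufs1 and Uqcrc1 are the lowest points at 2 months.

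The shift at 2 months depended on which mice were included. The mean deviation of all members from their own 12-array means was 0.01, -0.05 and 0.15 in Tg2576 replicates 1 to 3 and -0.20, -0.09 and 0.04 in WT replicates 1 to 3. The groups overlap, because WT replicate 3 was above Tg2576 replicates 1 and 2. Without Tg2576 replicate 3, 66 members were above 0 and the median was 0.05. Without WT replicate 1, 69 were above 0 and the median was 0.07. Without both, 49 of 97 members (50.5%) were above 0, against 50.1% of all probesets, and the median was 0.00. This pair was left out after the values were seen, and leaving out the highest Tg2576 and the lowest WT array can only lower the difference. In the other direction, the median was 0.18 without WT replicate 3. Then 17 members were called, and 2.65% of all probesets, which was 0.572% with all arrays.

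At 6 months the mice separated more evenly. The mean deviation of all members was 0.06, 0.04 and 0.12 in Tg2576 mice and 0.03, -0.09 and -0.03 in WT mice, so that every Tg2576 mouse was above every WT mouse. The nearest mice were close, with Tg2576 replicate 2 at 0.041 and WT replicate 1 at 0.033. The genotypes overlapped in complex II, where the lowest Tg2576 mouse was at 0.042 and the highest WT mouse at 0.082. They also overlapped in complex V, with -0.0064 and 0.016. In 23 members all Tg2576 mice were above all WT mice (7.56% of all probesets), and in 1 member, Ndufb10, all were below (7.29%). At 2 months the corresponding counts were 7 (5.23%) and 2 (4.73%). WT 6-month replicates 2 and 3, the arrays with high hybridization controls, were also the lower WT 6-month arrays for the members. Without WT 6-month replicates 2 and 3, 61 members (62.9%) were above 0, against 48.1% of all probesets, with a median of 0.04. Leaving out the lower WT arrays can only lower the mean difference, and a lone WT mouse remains. With the hybridization controls as a covariate, 68 members were above 0 and the median was 0.05. At 6 months these controls were high in WT arrays only, so this fit cannot separate them from genotype.

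**Figure D2:**
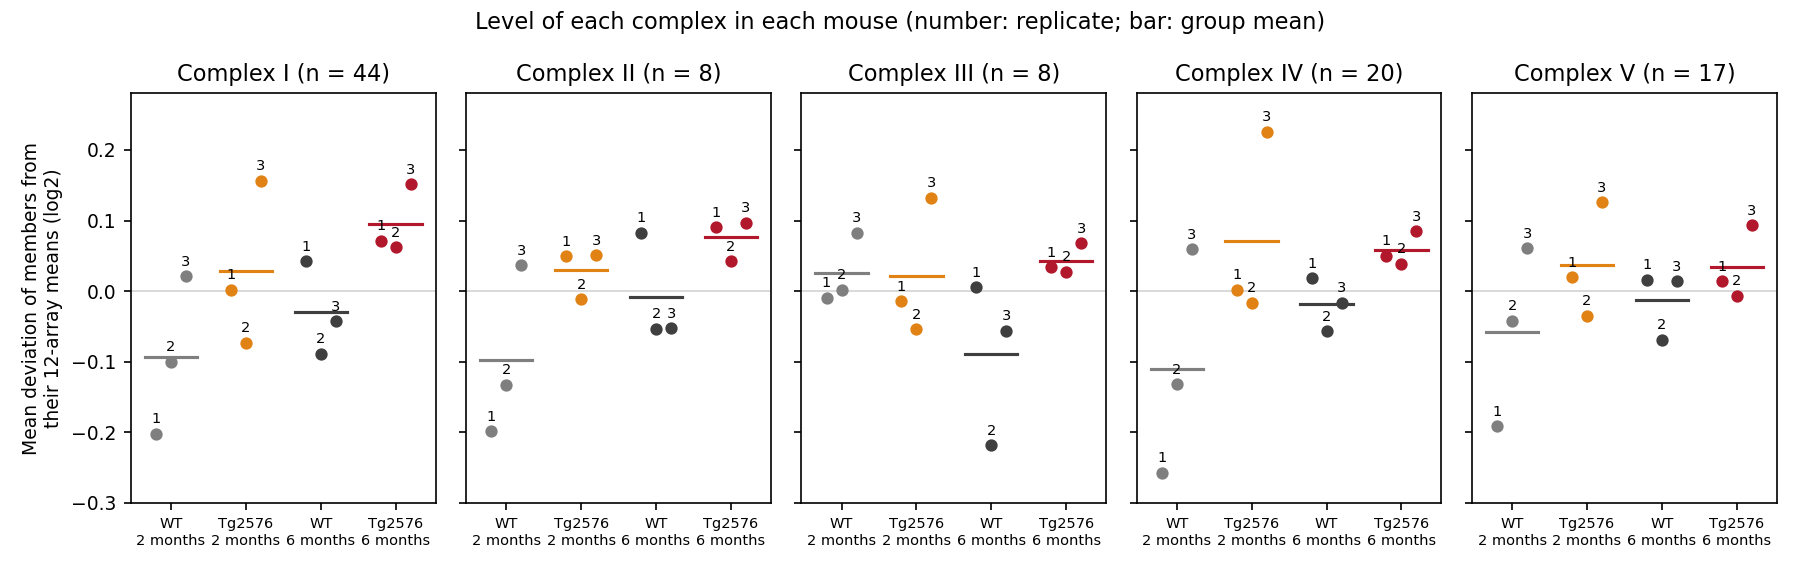
Mean deviation of the members of each complex from their own 12-array means (vertical axis, log2) in each of the 12 mice. Each point is a mouse, labelled with its replicate number, and the bar is the mean of the 3 mice of a group. Tg2576 2-month replicate 3 and WT 2-month replicate 1 stand at opposite ends in complexes I, IV and V, while in complex III the lowest mouse is WT 6-month replicate 2 at -0.22.

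Marker lists of the cell types in the tissue did not all move alike. Of the 16 markers of OB neurons, 13 were above 0 at 2 months, with a median log2 fold change of 0.18. Their mean level was 10.51 to 10.60 in Tg2576 and 10.34 to 10.49 in WT 2-month mice, and 10.57 to 10.62 in Tg2576 and 10.45 to 10.55 in WT 6-month mice, with no overlap at either age. At 6 months 8 of the 16 were above 0 and their median was 0.00, with Tbr1, Slc17a6 and Pvalb called higher (0.644% of all probesets). All 14 measured markers of the leptomeninges, the membranes around the bulb, were above 0 at 2 months, with a median log2 fold change of 0.48. Their mean level was 8.93, 8.98 and 9.51 in Tg2576 2-month mice and 8.33, 8.75 and 8.91 in WT 2-month mice, with the same mouse highest and the same mouse lowest as for the respiratory chain members. With this mean as a covariate, 46 members were above 0 at 2 months and the median was -0.01. Since the genotypes did not overlap in this mean at 2 months, the covariate takes up part of any genotype difference. The fit therefore cannot separate these markers from genotype. Markers of olfactory sensory neurons and nasal epithelium had a mean of 9.78 in Tg2576 2-month replicate 3 and between 8.70 and 9.09 in the other 2-month mice. At 6 months, 12 of these 13 markers were above 0 with a median of 0.38, and their mean was 8.32, 8.92 and 9.11 in Tg2576 mice and 8.71, 8.04 and 8.04 in WT mice. Of 12 oligodendrocyte markers, 11 were above 0 at 6 months, with a median of 0.22, as were 8 of 9 microglia markers, with a median of 0.14. At 2 months these counts were 10 and 6, with medians of 0.09 and 0.11. Of 9 astrocyte markers, 5 were above 0 at 2 months and 7 at 6 months, with medians of 0.15 and 0.17. For 9 markers of olfactory ensheathing glia the counts were also 5 and 7, with medians of 0.14 and 0.07. At 6 months 9 of the 14 leptomeningeal markers were above 0, with a median of 0.12. The part of these cell types in the members' values was not tested.

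**Figure D3:**
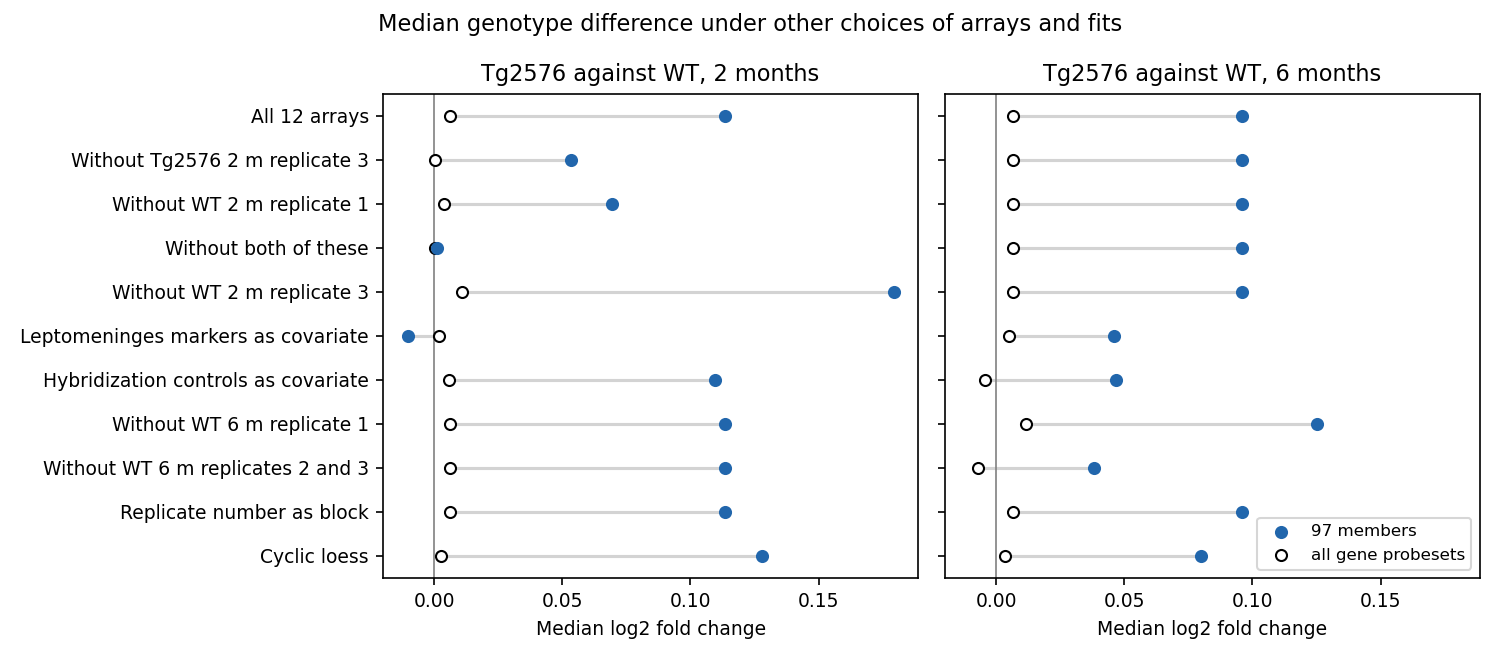
Median log2 fold change of Tg2576 over WT mice (horizontal axis) for the 97 members (filled) and for all gene probesets (open), for all 12 arrays and for other choices of arrays and fits, at 2 months (left) and 6 months (right). At 2 months the members' median meets that of all probesets without Tg2576 replicate 3 and WT replicate 1 (0.00) and is -0.01 with leptomeningeal markers as a covariate, and at 6 months it lies between 0.04 and 0.13.

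Complex I, which oxidizes NADH, gave a median log2 fold change of 0.12 at 2 months (36 of 44 genes above 0) and 0.11 at 6 months (38 of 44). Of its 6 core subunits, Ndufs1 and Ndufv2 were below 0 at 2 months. Ndufs1, the largest subunit of the peripheral arm and a carrier of iron-sulfur clusters, read 9.75, 9.64 and 9.28 in WT 2-month mice and 9.29, 9.01 and 9.13 in Tg2576 2-month mice. The highest Tg2576 mouse met the lowest WT mouse, and the log2 fold change was -0.42 ± 0.12 (SE, n = 3 mice per group; limma adjusted p = 0.762). This is a fold change of 0.749, which is short of the limit of 0.7. The p was at or above 0.01 without Tg2576 2-month replicate 2 or 3 or WT 2-month replicate 1 or 2, with a log2 fold change between -0.56 and -0.32 over all 12 fits that each left out 1 array. At 6 months Ndufs1 read 9.42, 9.52 and 9.54 in WT mice and 9.49, 9.53 and 9.37 in Tg2576 mice, with a difference of -0.03. Its genotype difference was 0.39 ± 0.17 (SE) higher at 6 than at 2 months, the lowest p of all members for this change (limma adjusted p = 0.842).

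The other core subunits of complex I varied less. The difference in Ndufs7, which holds the last iron-sulfur cluster before ubiquinone, was 0.20 at 2 and 0.23 at 6 months, and its groups did not overlap at either age. Ndufs3 differed by 0.07 and 0.09, Ndufs8 by 0.07 and 0.06, Ndufv1 by 0.13 and -0.02 and Ndufv2 by -0.09 and 0.11, at 2 and 6 months respectively. Ndufv1 binds NADH and the flavin cofactor, and Ndufv2 is its partner in the same module. Over the 6 core subunits the median was 0.07 at both ages.

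The 29 accessory subunits of complex I had a median of 0.14 at 2 months (25 above 0) and 0.11 at 6 months (27 above 0). Ndufa8, an accessory subunit of the membrane arm, read 11.12, 11.26 and 11.54 in WT and 11.63, 11.65 and 11.78 in Tg2576 2-month mice. All Tg2576 mice were above all WT mice, by 0.38 ± 0.11 on the log2 scale (SE, n = 3; limma adjusted p = 0.762), a fold that lies just under the limit of 1.3. Leaving out the same 4 arrays in turn as for Ndufs1 brought its p to 0.01 or above, with a log2 fold change between 0.29 and 0.49 over the 12 fits. At 6 months it read 11.50, 11.32 and 11.50 in WT and 11.60, 11.59 and 11.68 in Tg2576 mice, again without overlap, with a difference of 0.18. Ndufb3, another membrane-arm subunit, had the largest difference of complex I at 2 months (0.49 ± 0.18). It read 9.48, 9.80 and 10.43 in WT and 10.30, 10.29 and 10.58 in Tg2576 mice, so that WT replicate 3 lay inside the Tg2576 range. At 6 months Ndufb9 was higher by 0.35 ± 0.12, while Ndufb10 was lower by 0.13 with no overlap between the groups.

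Ndufb4b, a paralogue of Ndufb4 with a similar sequence, differed by 0.37 and 0.44 at 2 and 6 months, and Ndufb4 by 0.24 and 0.31. Signal shared between the probes of these paralogues cannot be told apart here. The 8 assembly factors Ndufaf1 to Ndufaf8, which build complex I and are absent from the mature enzyme, differed by -0.07 to 0.30 at 2 months. At 6 months they differed by -0.08 to 0.50. Ndufaf1, a factor for the membrane arm, was at the top of this range and read 7.24, 6.65 and 7.37 in WT and 7.62, 7.38 and 7.77 in Tg2576 6-month mice. Its groups did not overlap, with a limma adjusted p = 0.515, and the Ndufaf1 probeset is dimmer than the median probeset. Ndufaf5, at the lower end at 6 months, differed by -0.08.

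Complex II, or succinate dehydrogenase, is built from nuclear genes alone. Its median was 0.12 at 2 months (7 of 8 genes above 0) and 0.04 at 6 months (6 of 8). Sdha, the flavoprotein that oxidizes succinate, differed by 0.02 and 0.10 at 2 and 6 months. Sdhb, the iron-sulfur subunit, differed by 0.15 and 0.13, and the membrane anchors Sdhc and Sdhd by 0.11 and 0.11 at 2 months and by 0.02 and 0.04 at 6 months. All 4 subunits were above 0 at both ages, and none had a p under 0.05.

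The called gene of complex II was Sdhaf4, an assembly factor that helps the flavinylated Sdha subunit join Sdhb. Its probeset is dimmer than the median probeset. It read 7.71, 7.52 and 7.67 in WT and 8.10, 8.02 and 8.16 in Tg2576 6-month mice. The groups did not overlap, and Sdhaf4 rose by 0.46 ± 0.15 (SE, n = 3; limma adjusted p = 0.475), a fold of 1.38. At 2 months it read 7.28, 7.42 and 7.99 in WT and 7.96, 7.88 and 8.06 in Tg2576 mice, a difference of 0.40 with WT replicate 3 inside the Tg2576 range. The 6-month p was at or above 0.01 in 7 of 12 fits that each left out 1 array, which were those without any single 6-month mouse or without Tg2576 2-month replicate 1, and over all these fits the log2 fold change stayed between 0.40 and 0.50. It was also at or above 0.01 with the leptomeningeal markers or the hybridization controls as a covariate. The other assembly factors differed by less, with Sdhaf1 at 0.13 and -0.07, Sdhaf2 at -0.03 and 0.03 and Sdhaf3 at 0.13 and -0.04.

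The genes of complex III went in different directions at 2 months. Their median was 0.03 (5 of 8 genes above 0), and at 6 months it was 0.13 (7 of 8). Uqcrc1, a large matrix-facing subunit known as core protein 1 although it has no redox centre, read 11.34, 11.38 and 11.12 in WT and 11.04, 10.92 and 10.94 in Tg2576 2-month mice. All Tg2576 mice were below all WT mice, by 0.31 on the log2 scale (-0.31 ± 0.10, SE, n = 3; limma adjusted p = 0.762). This fold of 0.804 did not reach the limit of 0.7. Its p was at or above 0.01 without those 4 arrays in turn and without each Tg2576 6-month mouse, with a log2 fold change between -0.39 and -0.26. At 6 months the values were 10.94, 10.87 and 11.08 in WT and 10.96, 10.92 and 10.96 in Tg2576 mice, with a difference of -0.02. The WT 2-month mice were therefore the group apart, and the difference between ages in genotype effect was 0.30 (limma adjusted p = 0.842).

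Uqcrc2, the partner of Uqcrc1, differed by -0.11 at 2 months and 0.11 at 6 months, and Uqcrb, a small subunit near the ubiquinone site, by -0.19 and 0.11. Uqcrfs1, the Rieske iron-sulfur protein and the single core member here, differed by 0.02 at 2 months. At 6 months it read 10.53, 10.07 and 10.30 in WT and 10.53, 10.67 and 10.54 in Tg2576 mice, a difference of 0.28 ± 0.12 (limma adjusted p = 0.54), and WT replicate 1 lay just below the lowest Tg2576 mouse. Other small subunits were above 0 at both ages, with Uqcr11 at 0.33 and 0.16, Uqcrq at 0.10 and 0.16, and Uqcrh at 0.10 and 0.10.

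Complex IV, cytochrome c oxidase, had a median of 0.16 at 2 months (18 of 20 genes above 0) and of 0.08 at 6 months (16 of 20). The 2-month median was -0.01 with the leptomeningeal markers as a covariate and 0.01 without Tg2576 replicate 3 and WT replicate 1. Its catalytic subunits are mitochondrially encoded and are not members. All 11 accessory subunits were above 0 at both ages, with medians of 0.18 and 0.11. Cox6a1, the widely expressed form of a subunit that regulates the enzyme, read 11.69, 12.02 and 12.40 in WT and 12.48, 12.35 and 12.58 in Tg2576 2-month mice. WT replicate 3 lay within the range of the Tg2576 mice, while WT replicates 1 and 2 were below all of them. Cox6a1 rose by 0.44 ± 0.14 (SE, n = 3; limma adjusted p = 0.762), a fold of 1.35. At 6 months it read 12.38, 12.51 and 12.46 in WT and 12.51, 12.61 and 12.59 in Tg2576 mice, with a difference of 0.12. The 2-month p was at or above 0.01 in 9 of 12 fits that each left out 1 array, all but those without Tg2576 2-month replicate 2, WT 2-month replicate 3 or WT 6-month replicate 2, and the log2 fold change over the 12 ranged from 0.26 to 0.62. It was also at or above 0.01 with the leptomeningeal markers as a covariate, as were the 2-month p-values of Ndufs1, Ndufa8 and Uqcrc1.

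**Figure D4:**
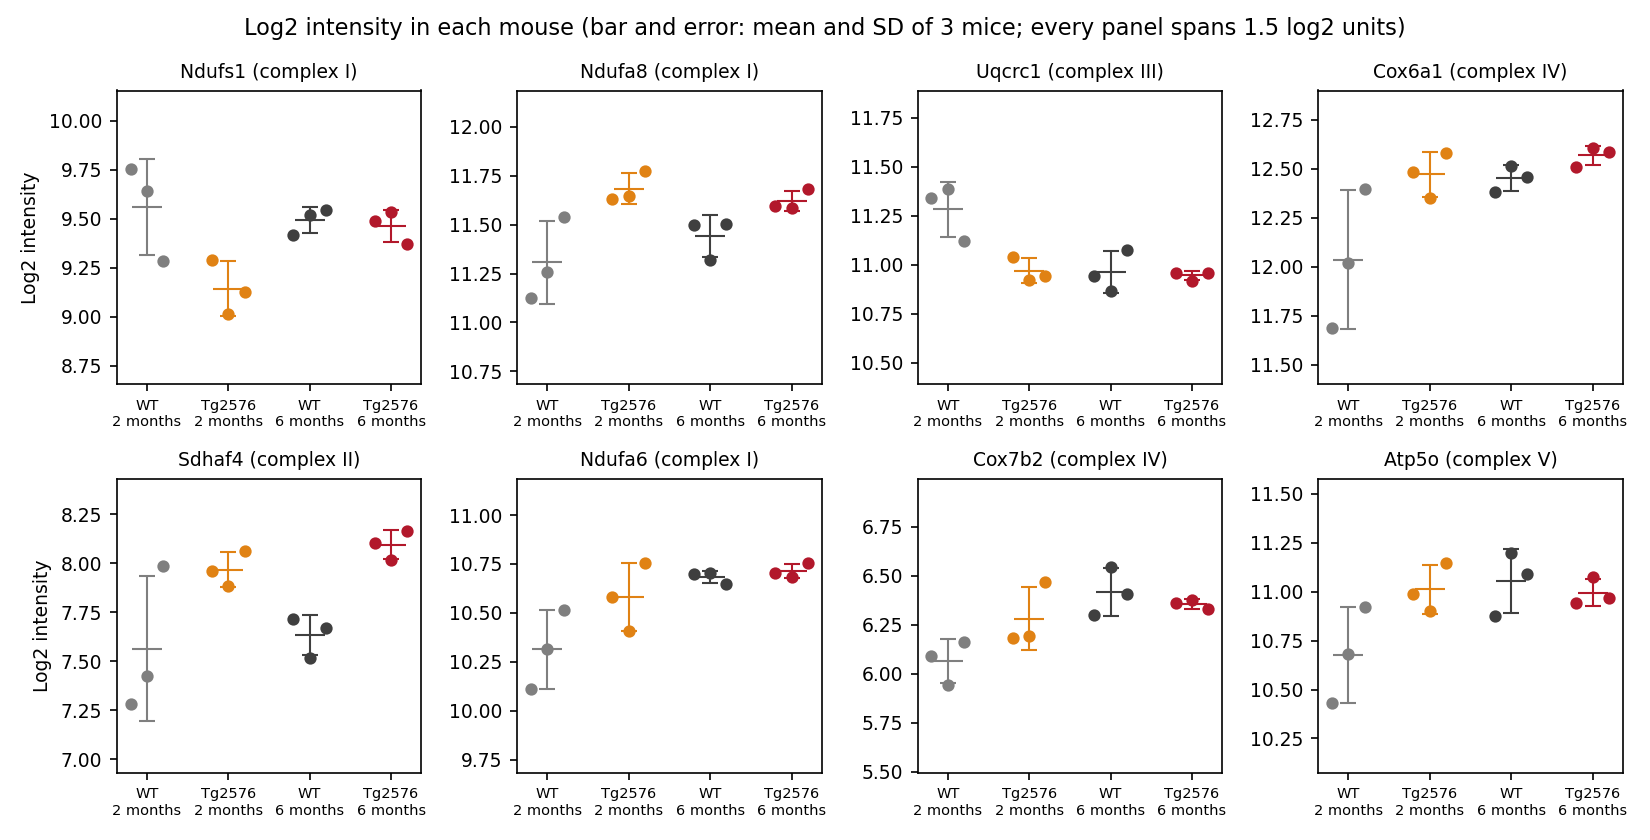
Log2 intensity (vertical axis) of 8 members in each of the 12 mice. Points are mice in the order of their replicate numbers, the bars are the mean and SD of 3 mice, and each panel spans the same range. Ndufs1 and Uqcrc1 are lower in Tg2576 than in WT mice at 2 months and level at 6 months, and Sdhaf4 is higher in Tg2576 mice at 6 months with no overlap.

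Where complex IV has isoforms, the ubiquitous and the tissue-restricted forms were read side by side. Cox4i1 differed by 0.19 and 0.21 at 2 and 6 months, and Cox4i2, the hypoxia-responsive form, differed by -0.04 and 0.00. Cox6a2, the heart and muscle counterpart of Cox6a1, differed by 0.00 and 0.10. Cox6b1 was higher by 0.35 and 0.27, and Cox6b2, known from testis, by 0.37 and 0.19. Cox7a2 differed by 0.12 and 0.05, while its muscle form Cox7a1 differed by 0.34 and -0.05. Cox8a was higher by 0.35 and 0.11, and its muscle form Cox8b by 0.18 and 0.01. Ndufa4 was higher by 0.11 and 0.10, and its hypoxia-induced paralogue Ndufa4l2 by 0.07 and -0.05. The 9 isoforms and paralogues are 8 of complex IV and Ndufb4b of complex I. Together they had a median of 0.18 at 2 months and 0.00 at 6 months, and 4 of them (Cox7b2, Cox8b, Cox8c and Ndufa4l2) were dimmer than the median probeset. Markers of skeletal muscle and heart had a mean between 7.15 and 7.42 over the 12 arrays.

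Complex V, the ATP synthase, had a median of 0.08 at 2 months (11 of 17 genes above 0) and 0.05 at 6 months (12 of 17). Its 5 core subunits, of the head and the central stalk, ran from -0.07 to 0.36 at 2 months, with a median of -0.03 and 2 of 5 above 0. Atp5a1 and Atp5b, the alpha and beta subunits of the head, differed by -0.04 and -0.07 at 2 months and by 0.05 and -0.06 at 6 months. The stalk subunits Atp5c1, Atp5d and Atp5e differed by -0.03, 0.14 and 0.36 at 2 months and by 0.01, 0.13 and 0.06 at 6 months. Among accessory subunits, Atp5o, which connects the head to the peripheral stalk, was higher by 0.34 at 2 months and differed by -0.06 at 6 months. Its genotype difference changed by -0.40 between ages (limma adjusted p = 0.842). Atp5g1, Atp5g2 and Atp5g3 encode the same mature ring subunit, and differed by -0.08, 0.13 and 0.08 at 2 months and by 0.20, 0.20 and 0.03 at 6 months. Atp5j was lower by 0.08 at 2 months, and Atp5l and Atp5pb were lower by 0.09 at 6 months.

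In no member did the genotype difference change between ages at a limma p under 0.01 (0.261% of all probesets changed upwards and 0.518% downwards). At an unadjusted p under 0.05 there were 2, Ndufs1 upwards (2.49%) and Atp5o downwards (3.22%). The medians of this change were 0.17 in complex III (6 of 8 genes above 0), -0.08 in complex IV (4 of 20) and -0.02 over all members, of which 44 were above 0 (50.5% of all probesets). Without WT 2-month replicate 3, 5 members passed a p under 0.01, and 3.42% of all probesets.

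The ages were then compared within each genotype. These comparisons share their mice with the genotype comparisons. In WT mice, 61 of the 97 members were higher at 6 than at 2 months (62.9%, against 48.3% of all probesets), with a median of 0.07. Without WT 2-month replicate 1 there were 51 (52.6%, against 48.8%) with a median of 0.0092. The median was 0.029 without WT 6-month replicate 1, 0.11 without WT 6-month replicate 2 and 0.14 without WT 2-month replicate 3. No member was called with the fold limits (1.45% of all probesets higher and 0.293% lower), and 2 were higher (2.09%) and 1 lower (1.33%) at an unadjusted limma p under 0.01. At p under 0.05, 9 were higher (6.62%) and 3 lower (5.39%), and the ages did not overlap in 4 members that were higher (7.22%) and 5 that were lower (6.16%). Ndufa6, an accessory subunit of complex I, was 0.37 ± 0.12 higher at 6 months (limma adjusted p = 0.269). Its values were 10.11, 10.32 and 10.51 at 2 months and 10.70, 10.70 and 10.65 at 6 months. Cox7b2, a complex IV isoform, was 0.35 ± 0.11 higher (limma adjusted p = 0.267), and was the dimmest member. Uqcrc1 was 0.32 lower at 6 months (-0.32 ± 0.10, limma adjusted p = 0.267), and these 3 members had no overlap between ages. Each of these p-values was at or above 0.01 without WT 2-month replicate 1 or 2 or WT 6-month replicate 2, that of Ndufa6 and of Uqcrc1 also without WT 6-month replicate 1, and that of Ndufa6 and of Cox7b2 also without WT 6-month replicate 3. All 3 were also at or above 0.01 with the hybridization controls as a covariate. These controls were high in WT 6-month replicates 2 and 3 alone, so that fit cannot fully separate them from age.

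Complex III was lower with age in WT mice, with a median of -0.14 and 2 of 8 genes above 0, where the medians of the other complexes were 0.09 (I), 0.12 (II), 0.07 (IV) and 0.04 (V). WT 6-month replicate 2 was lowest for complex III, and the median was -0.03 without WT 6-month replicates 2 and 3. In Tg2576 mice the values between ages depended on the arrays. Of the 97, 58 were above 0 (49% of all probesets) with a median of 0.02. Without Tg2576 2-month replicate 3, 80 were above 0 (82.5%, against 50.5%) with a median of 0.094. Over the 6 fits that each left out 1 Tg2576 mouse, the median ran from -0.0080, without Tg2576 2-month replicate 2, to this value. With all arrays, none was called (0.36% higher and 0.167% lower), and none had a limma p under 0.01 (0.549% higher and 0.59% lower). At an unadjusted p under 0.05 there were 2, Ndufs1 (0.32 higher at 6 months, 2.72% of all probesets) and Cox8b (-0.39, 2.89%). The ages did not overlap in 5 members that were higher (7.24%) and 4 that were lower (6.96%). Marker lists also moved between ages. In WT mice, 0 of 13 markers of olfactory sensory neurons and nasal epithelium were above 0 (median -0.39). Of the oligodendrocyte markers 1 of 12 was (-0.37), and of the OB neuron markers 10 of 16 were (0.06). In Tg2576 mice these counts were 1 (-0.10), 3 (-0.15) and 10 (0.04). Leptomeningeal markers gave 7 of 14 in WT (-0.01) and 0 of 14 in Tg2576 mice (-0.30). Their part was not tested.

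Other mitochondrial and energy genes were read from the same fit. The 74 measured mitochondrial ribosomal proteins, which translate the mitochondrially encoded subunits, had a median of 0.12 at 2 months (60 above 0) and 0.08 at 6 months (54 above 0). At 6 months Mrpl11, Mrpl16 and Mrpl30 had a limma p under 0.01 (0.829% of all probesets higher), with log2 fold changes of 0.45, 0.47 and 0.34. Assembly factors and partners outside the member rule had a median of 0.05 at 2 months (27 of 41 above 0) and 0.03 at 6 months (26 of 41). The tricarboxylic acid cycle had medians of 0.00 (7 of 16 above 0) and 0.04 (10 of 16). Glycolysis gave 0.07 (10 of 15) and -0.07 (6 of 15), and mitochondrial carriers -0.08 (4 of 11) and 0.05 (7 of 11). Among the carriers, Slc25a12, an aspartate and glutamate exchanger, was lower by 0.40 at 2 months (limma adjusted p = 0.762). Regulators of mitochondrial biogenesis had medians of -0.09 (5 of 13) and 0.01 (7 of 13), and none had a p under 0.01 between genotypes. Between ages in WT mice, 3 of them had a limma p under 0.01 (2.09% of all probesets higher and 1.33% lower). Nrf1, the factor that binds the NRF1 motif, was 0.39 higher at 6 months, Gabpb1, a subunit of the ETS-family factor GABP, 0.46 higher, and Pprc1, a coactivator related to PGC-1, lower by 0.45 (limma adjusted p = 0.243, 0.262 and 0.267). The p was at or above 0.01 in 2 of 12 fits that each left out 1 array for Nrf1, in 2 for Gabpb1 and in 5 for Pprc1. Nrf1 lost it without WT 2-month replicate 2 or WT 6-month replicate 3, Gabpb1 without WT 2-month replicate 3 or WT 6-month replicate 2, and Pprc1 without any single WT mouse but 6-month replicate 3. In WT mice the glycolytic enzyme gene Pfkp was also higher, by 0.36, and the ADP and ATP exchanger gene Slc25a5 lower, by 0.36, at a p under 0.01. Coa7, an assembly factor, passed this limit for the change of the genotype difference with age, which was 0.51. Among these other list genes, the p of Slc25a5 and of Pfkp was at or above 0.01 in 4 of the 12 fits, that of Coa7 and of Slc25a12 in 3, that of Mrpl11 and of Mrpl30 in 2 and that of Mrpl16 in 0.

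**Figure D5:**
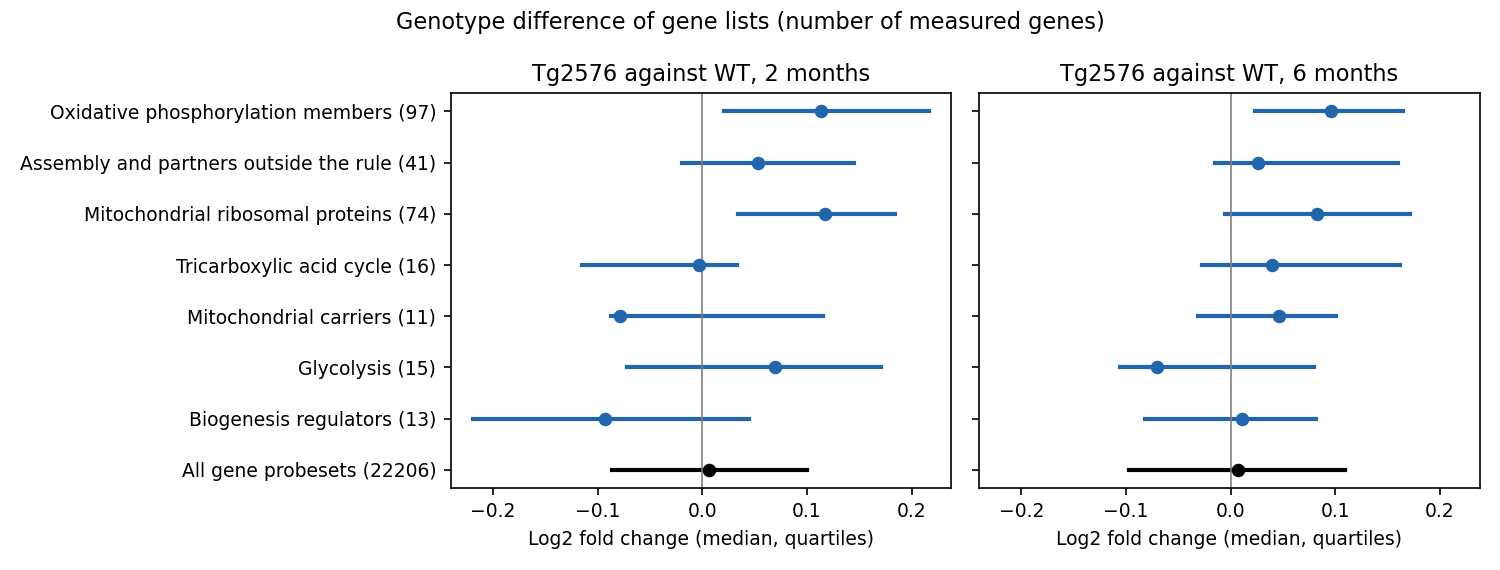
Median (point) and quartiles (line) of the log2 fold change of Tg2576 over WT mice (horizontal axis) for the 97 members, 6 other gene lists and all gene probesets, with the number of measured genes in brackets, at 2 months (left) and 6 months (right). The members (0.11 and 0.10) and the mitochondrial ribosomal proteins (0.12 and 0.08) have the highest medians at both ages, and all probesets are at 0.01.

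The members were also set against the length of their genes, since many are short. At 2 months the Spearman correlation across genes between log2 fold change and gene span was -0.33 over the 97 members and -0.16 over 19572 probesets with a span. It was -0.16 and 0.00 at 6 months. Over the 10092 of these probesets at or above the median brightness, where 90 of the members lie, it was -0.245 at 2 months and -0.08 at 6 months. Genes share arrays and are not independent replicates, so these values are a description. At 2 months the 48 members with a span below 7279 bases had a median log2 fold change of 0.14, and the other 49 had one of 0.07. At 6 months the medians were 0.10 and 0.10. Over the probesets at or above the median brightness, these medians were 0.06 and -0.01 at 2 months, and 0.03 and 0.00 at 6 months. The part of gene length in these values was not tested.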

How the data were processed

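OB mRNA of 12 female mice was extracted by the authors, amplified from 1 ng and hybridized to 1 array per mouse. The deposited values are log2 intensities that the authors made by RMA (background correction, quantile normalization between arrays and a summary to 1 value per probeset). No source used here gives the RMA version. Quantile normalization removes a change shared by all genes, so values are relative to the other genes of an array. Members were the genes matching the symbol rule, and the probeset with the highest mean would have been kept for a gene with several, but each had 1. The 22206 gene probesets were tested with no filter, and 6923 control probesets were left out. The 4 group means were fitted to the 12 arrays with limma 3.58.1 in R 4.3.3 (statmod 1.5.0), with moderated variances. Calls needed an unadjusted p under 0.01, as in the study's methods, and a fold over 1.3 or under 0.7, as in its supplementary sheet names. The change of the genotype difference with age was called on p alone. Benjamini-Hochberg values were computed over all probesets at 0.05. All p-values of single genes are two-sided limma values, since an exact permutation test of 3 against 3 cannot go below 0.1. The precision is limited by the number of arrays.

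The members, the gene lists, the roles and the rule for named genes were chosen with earlier results of these data known. Named genes are those with a p under 0.01 in any comparison, the 2 highest and the 2 lowest members of each complex at each age, all core subunits, the isoform pairs and Ndufa8; further members named beside these were chosen after their values were seen. Alternatives were a fit to 2 groups, a trended robust prior, array weights, median centring, cyclic loess, no dim probesets, the replicate number as a block, the hybridization controls or the leptomeningeal markers as a covariate, other call rules, subunits alone, and leaving out arrays. The same-numbered mice did not deviate together in all pairs, so the replicate numbers were not taken to pair them. The fit was tested on simulated data. The NRF1 motif was first searched with 1 more base at its end. The shorter form replaced it after the shares of that search had been seen, to keep to the length of motif that is printed here, and the share of member windows was above that of all windows in both searches. Plots were drawn with matplotlib 3.10.9.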

Additional observations from a re-analysis of the deposited data

How the results depend on the processing

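Some medians of members changed sign in an alternative run, among them that of all members at 2 months, and several are given in the next paragraph. No member with a limma p under 0.01 in a comparison changed direction there in the fits that each left out 1 array. Calls were few and moved with the settings. At 2 months 1 member was called, and the count was 6 with array weights, 2 with cyclic loess, 2 with symmetric fold limits and 4 with no fold limit at p under 0.01 or 18 at p under 0.05. It was 0 with the leptomeningeal covariate, 0 without WT 6-month replicates 2 and 3, 0 in the fit to 2 groups and 0 after Benjamini-Hochberg adjustment. At 6 months, where 1 was called, the count was 2 with a robust prior, 2 in the fit to 2 groups, 7 at p under 0.05, and 0 with the hybridization covariate, without WT 6-month replicates 2 and 3 or after adjustment. The change of the genotype difference with age gave 2 members at p under 0.05 in place of 0. In WT mice the 0 calls between ages became 2 with a robust prior, 3 with array weights, 1 with cyclic loess, 1 with the leptomeningeal covariate, 3 with no fold limit at p under 0.01 and 12 at p under 0.05. In Tg2576 mice there were 2 at p under 0.05. The fit without dim probesets kept 90 members, and Sdhaf4 was not among them. It called 1 of them at 2 months (0.928% of the probesets kept), 0 at 6 months (0.91%) and 2 in WT mice between ages (2.28%). With the replicate number as a block, 2 members were called at 2 months, 2 at 6 months and 2 in WT mice between ages. The correlations of deviations between same-numbered mice were 0.175, -0.217 and 0.00605 at 2 months, and not every pair passed 0.1. The share of all probesets called moved as well, and that of the main fit is given last. At 2 months it was 1.26% with array weights, 0.567% with cyclic loess, 0.694% with the block and 0.261% with the leptomeningeal covariate, against 0.572%. At 6 months it was 0.36% with the hybridization covariate, 1.03% with a robust prior and 1.09% with the block, against 1.04%. In WT mice it was 2.34% with array weights, 1.87% with a robust prior, 1.68% with cyclic loess and 1.75% with the block, against 1.74%. With no fold limit, 1.22% of all probesets had a p under 0.01 at 2 months and 3.42% in WT mice. The shares at p under 0.05 are given with the comparisons above. Leaving out 1 array gave 0 to 17 calls at 2 months and 0 to 4 at 6 months. For the change with age it gave 0 to 5, and in WT mice 0 to 8. The highest counts came without WT 2-month replicate 3, except that at 6 months, which came without WT 6-month replicate 1. In these same fits 2.65% of all probesets were called at 2 months and 2.95% at 6 months. The share was 3.42% for the change with age and 3.83% in WT mice.

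The medians at 2 months with the leptomeningeal covariate were -0.010 over all members and -0.0053, -0.012 and -0.043 in complexes I, IV and V. Without Tg2576 2-month replicate 3 and WT 2-month replicate 1, a choice made after seeing the data, they were 0.00092, -0.0061, 0.013 and -0.031, and 0 members were called. At 6 months without WT replicates 2 and 3, they were 0.038 over all members and -0.046, 0.037 and 0.026 in complexes II, III and IV. The lone WT mouse is then assumed to vary like the other groups. The hybridization covariate gave 0.034 in complex III and 0.038 in complex IV, and the leptomeningeal covariate gave 0.010 in complex IV and -0.024 in complex V. The complex II median at 6 months ranged from 0.012 to 0.11 when 1 array was left out. In WT mice between ages, the complex III median was -0.012 with the hybridization covariate and -0.034 without WT 6-month replicates 2 and 3. In Tg2576 mice between ages, the leptomeningeal covariate gave 0.11 over all members, 0.10 in complex IV and 0.095 in complex V, and the complex II median ranged from 0.0072 to 0.10 when 1 array was left out. The causes were not tested. Using all probesets of each member gave no further value, since each had 1.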
